A study of Mus musculus with 12 samples.

Results

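The genes described here are those of the cytosolic ribosomal proteins and their paralogues, chosen by symbol: every gene whose platform symbol begins with Rpl or Rps and a digit, with the stalk proteins Rplp0, Rplp1 and Rplp2 and with Rpsa, but without the Rps6k kinases and pseudogene symbols. The rule found 48 genes among the 12393 measured. Of these, 42 were core genes, made up of 20 large subunit proteins, 20 small subunit proteins and the stalk proteins Rplp0 and Rplp2. The other 6 were the paralogues Rpl39l, Rps4l, Rps27l, Rpl22l1, Rpl7l1 and Rpl3l. A further 30 ribosomal genes, Rplp1, Rpl3 and Rpl5 among them, lay only on probe sets annotated to several genes and were not analysed here. RefSeq lists 47 of the 48 as protein coding and Rps4l as a transcribed pseudogene.

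Affymetrix arrays, 12 in all, measured RNA from cultured mouse fibroblasts in 4 groups of 3. The groups were the GFP+ and the GFP- cells of inguinal fat and the GFP+ and the GFP- cells of epididymal fat, sorted from cultures of the stromal vascular fraction, the cells of fat that remain once the adipocytes are removed. Inguinal fat lies under the skin and epididymal fat in the abdomen beside the testis. Every donor was a male transgenic mouse of the Zfp423-GFP line, 6 to 8 weeks old, with FVB and C57BL/6 as its background, so the GFP- cells carry the transgene too. By the name of the line, GFP reports Zfp423, a zinc-finger factor of the fat lineage. After sorting, all cells were grown in DMEM/F12 with 10% serum and taken before they stopped dividing. The labels tie neither replicates nor depots to separate animals, so the p-values measure the spread between these cultures, which may be technical.

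A ribosome holds one copy of nearly every ribosomal protein, and the genes of these proteins are known to be strongly and jointly expressed in growing cells. Their mRNAs carry a 5′ terminal oligopyrimidine tract that lets growth signals set how far they are translated. Most core genes are used in every tissue, whereas a few have paralogues of restricted expression. In mouse, Rpl39l is best known from male germ cells and Rpl3l from striated muscle. Rpl22l1 is kept low by its partner Rpl22 in mouse, and human RPS27L is a target of p53.

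The arrays were alike in scale. Their median signal over annotated probe sets lay between 379.8 and 405.1, replicates correlated at 0.993 to 0.995 within a group, and no array was a copy of another. All 10 fibroblast markers of a set list were above the level of weak detection, a signal of 77.7, and their summed signal was 191986 to 202576 in inguinal GFP+ cells, 197127 to 199495 in inguinal GFP- cells, 199640 to 201943 in epididymal GFP+ cells and 190543 to 196736 in epididymal GFP- cells. Markers of other cells moved with the groups. The summed signal of 10 mesothelial markers was 1965 to 2316 in inguinal GFP+ cells, 1650 to 1801 in inguinal GFP- cells, 7439 to 7709 in epididymal GFP+ cells and 40365 to 43108 in epididymal GFP- cells. For 15 macrophage markers it was 2358 to 2599 in inguinal GFP+ cells, 11719 to 13781 in inguinal GFP- cells, 3112 to 3236 in epididymal GFP+ cells and 3516 to 3976 in epididymal GFP- cells. Their part in the results below was not tested, and an RNA that differs by cell makeup cannot be told apart here from one that differs per cell.

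The 250 bases before the start given in RefSeq's promoter table, the first listed where a gene has several, are shown for paralogues that the results turn on, for Rpl39, the partner of Rpl39l, and for Rps18, which like Rpl39l holds the searched motif at 2 places. Sequences are RefSeq's for GRCm38.p6, written 5′ to 3′ on the strand of the gene, and capitals mark the letters CCGGAAG, the core of a site bound by ETS-family factors. Rpl39l lies at chr16:10169978-10170227 on the plus strand, Rpl39 at chrX:37085223-37085472 on the minus strand, Rps18 at chr17:33955666-33955915 on the minus strand, Rpl22l1 at chr3:28805258-28805507 on the plus strand and Rps27l at chr9:66945836-66946085 on the plus strand. For 34 of the 42 members in that table its start is also where the gene record begins. It lies 31 bases inside the record for Rpl39l, so the end of that window is not upstream of the gene. For Rps27l it lies 1462 bases inside, so that window lies wholly within the gene record.
Rpl39l: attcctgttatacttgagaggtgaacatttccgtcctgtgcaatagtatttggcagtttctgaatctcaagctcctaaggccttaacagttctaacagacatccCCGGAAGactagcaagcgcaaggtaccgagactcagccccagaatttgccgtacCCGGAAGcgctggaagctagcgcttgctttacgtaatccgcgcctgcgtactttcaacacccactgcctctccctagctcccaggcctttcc
Rpl39: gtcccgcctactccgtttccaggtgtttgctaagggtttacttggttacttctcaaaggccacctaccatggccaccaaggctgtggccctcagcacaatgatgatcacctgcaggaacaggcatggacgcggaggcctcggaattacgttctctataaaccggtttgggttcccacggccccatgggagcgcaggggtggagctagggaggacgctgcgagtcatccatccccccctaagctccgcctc
Rps18: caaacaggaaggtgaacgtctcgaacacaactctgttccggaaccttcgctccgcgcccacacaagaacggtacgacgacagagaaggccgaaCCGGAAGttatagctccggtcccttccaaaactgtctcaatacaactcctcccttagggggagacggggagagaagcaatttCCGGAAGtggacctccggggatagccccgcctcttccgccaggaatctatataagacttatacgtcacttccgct
Rpl22l1: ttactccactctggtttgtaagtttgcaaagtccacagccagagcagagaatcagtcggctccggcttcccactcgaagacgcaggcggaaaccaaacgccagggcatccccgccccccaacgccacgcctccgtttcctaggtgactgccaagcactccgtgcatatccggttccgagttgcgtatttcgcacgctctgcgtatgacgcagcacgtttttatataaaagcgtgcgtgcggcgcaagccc
Rps27l: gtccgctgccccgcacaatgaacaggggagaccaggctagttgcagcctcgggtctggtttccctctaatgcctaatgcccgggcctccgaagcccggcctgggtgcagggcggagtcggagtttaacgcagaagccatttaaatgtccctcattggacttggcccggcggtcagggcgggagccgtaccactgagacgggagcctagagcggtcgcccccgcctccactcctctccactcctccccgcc

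Promoter entries matched 42 of the 48 genes. CCGGAAG, searched on both strands, was found in 17 of these 42 windows, or 40.5%, against 7.05% of 27025 promoters of the same length. Copies began 146 and 92 bases before the table's start in Rpl39l and 157 and 75 bases before it in Rps18. Only these 2 of the 42 held it 2 or more times, against 0.858% of all promoters. Of the 7 other motifs searched on both strands, GGGCGG was in 47.6% of member windows and 32.9% of all promoters, CTTTCC in 31% and 22.7%, TATAAA in 7.14% and 13%, CACGTG in 7.14% and 6.05%, AAGATGG in 4.76% and 4.53%, CTCTTTC in 7.14% and 6.74%, and the palindrome known as the ZBTB33 motif in 4.76% and 0.407%. These are matches of letters and no measurement of binding.

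The paralogues held the largest differences of the family, beginning with Rpl39l. Its probe set gave signals of 6550, 6721 and 6149 in inguinal GFP+ cells and 26, 12 and 42 in epididymal GFP+ cells. In GFP- cells it gave 7199, 7309 and 7105 in inguinal cultures and 34, 36 and 53 in epididymal cultures. All 6 inguinal arrays were high, and all 6 epididymal arrays were below weak detection, near the median of 31 olfactory receptor genes, which was 19.9 to 22.3 by group. The inguinal signal was therefore at least 83.4-fold higher in GFP+ cells and at least 92.8-fold higher in GFP- cells, with the weak detection level standing in for the epididymal signal. On the scale of log2(signal + 16), where every test was run, the fitted difference was 7.32 ± 0.18 in GFP+ cells and 7.0 ± 0.18 in GFP- cells (SE, n = 3 each, limma adjusted p = 5.7e-14 and 1.67e-14). With the epididymal signal at background these values depend on the added 16, and ran from 6.19 to 8.04 and from 6.12 to 7.45 over the settings tried.

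Between GFP states the Rpl39l signal was not called. The difference was -0.15 ± 0.18 in inguinal cells (limma adjusted p = 0.69) and -0.47 ± 0.18 in epididymal cells (limma adjusted p = 0.0504), where the signal was at background. The epididymal comparison passed the threshold in 8 of 23 other settings, with differences of -0.75 to -0.20 and limma adjusted p of 0.00139 to 0.285 over all 23. Among the 8 were the fits without epididymal GFP+ replicate 3 (-0.72) and without epididymal GFP- replicate 1 (-0.55). The inguinal comparison passed in 1 of 23, with only the compared groups in the fit (limma adjusted p = 0.023). Of 9 germ cell markers, 7 were weakly detected, and none was called higher in inguinal cells in either comparison, by limma's adjusted p or at an unadjusted p below 0.05. Ddx4, an RNA helicase of germ cells, was lower there, with a mean of 15.9 ± 0.9 in inguinal GFP+ cells, against 51.0 ± 8.0 in epididymal GFP+ cells. Without GFP it had 9.2 ± 2.6 in inguinal cells, against 221.2 ± 39.9 in epididymal cells (SD, n = 3 each).

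Measured neighbours of Rpl39l showed no difference of like size. Its 3 nearest measured neighbours on each side in GRCm38.p6, looked up after its values were known, were Carhsp1, Usp7 and Grin2a before it and Atf7ip2, Emp2 and Nubp1 after it. Their depot differences ran from -0.66 (Grin2a in GFP- cells, weakly detected) to 0.46 (Carhsp1 in GFP+ cells). Carhsp1, Emp2 and Nubp1 rose in inguinal GFP+ cells, by 0.46 ± 0.04, 0.45 ± 0.04 and 0.31 ± 0.05 (SE), and none of the 6 was called in GFP- cells. Rps18, the other gene with 2 copies of the motif, gave 31460 to 32772 in inguinal GFP+ cells, against 32079 to 32890 in epididymal GFP+ cells, and its depot differences of -0.02 ± 0.02 and 0.03 ± 0.02 (SE) were not called. With its _x_at probe sets left out, both were called, at 0.10 and 0.11. Under quantile normalization the GFP+ one was called at -0.09, and with probe sets averaged the GFP- one at 0.16. The partner Rpl39 offers no comparison of levels: its only probe set was weakly detected, at 30 to 96 on all 12 arrays, and its depot differences of -0.03 ± 0.30 and -0.28 ± 0.30 were not called.

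Rps4l, a copy of the small subunit gene Rps4x that RefSeq annotates as a transcribed pseudogene, changed in every comparison. Its signals were 3272, 3163 and 3157 in inguinal GFP+ cells and 2433, 2361 and 2260 in inguinal GFP- cells. Epididymal GFP+ cells gave 1718, 1848 and 1811, and epididymal GFP- cells 254, 253 and 220. No group overlapped another, and the epididymal GFP- arrays stood far below the rest. GFP+ cells were higher by 0.44 ± 0.05 in inguinal cultures and by 2.81 ± 0.05 in epididymal cultures (SE, limma adjusted p = 3.46e-05 and 9.01e-16), which on the signal scale is 1.36-fold and 7.40-fold. The contrasts differed by -2.37 ± 0.08 (inguinal minus epididymal, limma adjusted p = 1.18e-12). Inguinal cells exceeded epididymal cells by 0.83 ± 0.05 in GFP+ and 3.20 ± 0.05 in GFP- cells (limma adjusted p = 4.3e-09 and 1e-16). Among its 6 nearest measured neighbours the depot differences lay between -0.39 (Klhl42) and 0.34 (Ccdc91), both in GFP- cells. Rps4x itself, at 29670 to 31863 on all arrays, differed by 0.08 ± 0.02 and 0.05 ± 0.02 between depots in GFP+ and GFP- cells. The GFP- call of Rps4x was lost when any 1 of 10 arrays was left out.

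**Figure D1:**
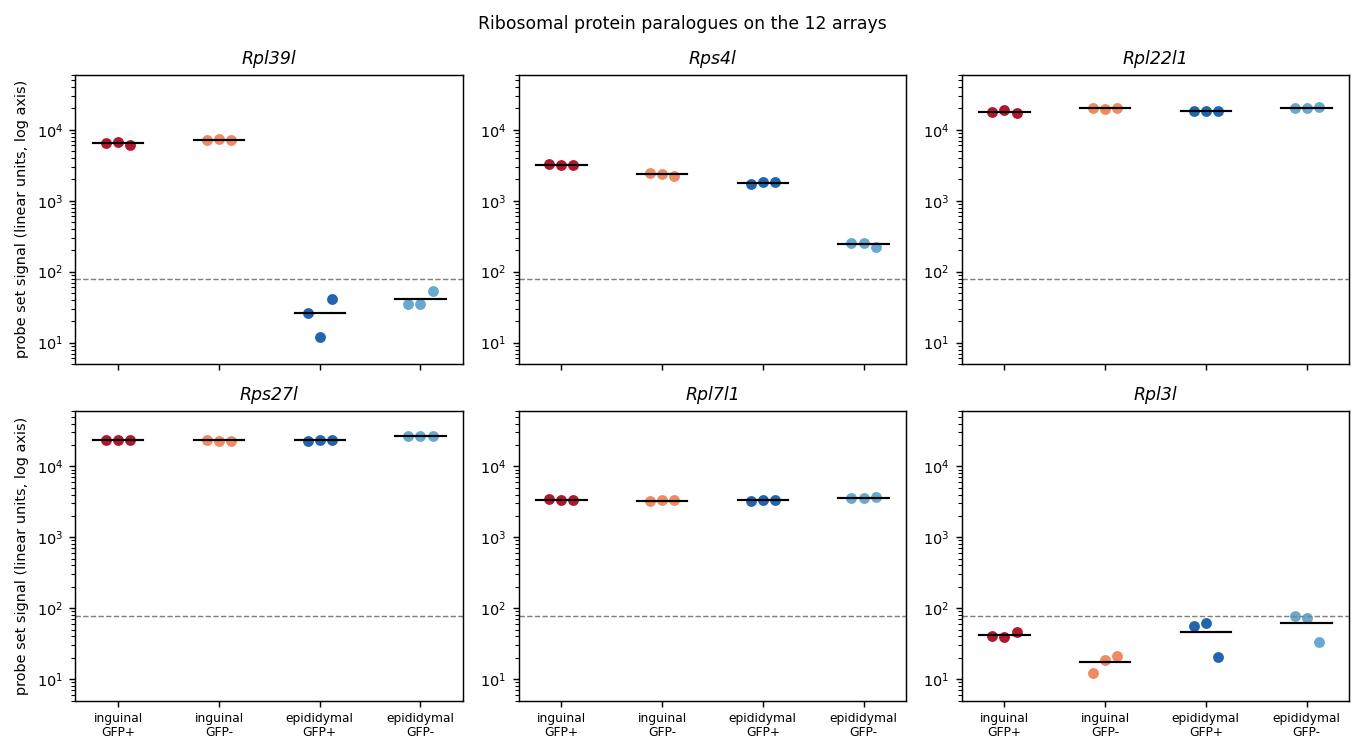
Signal of the 6 paralogues on each array, in linear units on a log axis, with points for arrays, black bars for group means and a dashed line at the weak detection level of 77.7. Rpl39l is above the line on the 6 inguinal arrays alone and Rps4l is lowest in epididymal GFP- cells, while Rpl22l1, Rps27l and Rpl7l1 are nearly level at this scale and Rpl3l is near or below the line throughout.

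Rpl22l1 was the paralogue that fell with GFP in both depots. It measured 18032, 18685 and 17200 in inguinal GFP+ cells, against 20199, 19785 and 20134 in inguinal GFP- cells. In epididymal cells it measured 18417, 18618 and 18553 with GFP and 20084, 20014 and 20647 without. The groups did not overlap in either depot, with differences of -0.16 ± 0.03 and -0.13 ± 0.03 (SE, limma adjusted p = 0.000737 and 0.000987). The mean signal fell by 10.3% with GFP in inguinal cells and fell by 8.49% in epididymal cells. The difference between the contrasts was -0.03 ± 0.04 and not called, and so were the depot differences of -0.04 and -0.01. By its brightest probe set Rpl22 did not pass in either GFP comparison (-0.02 ± 0.02 and -0.01 ± 0.02). Its other probe set, with means of 1954 in epididymal GFP+ cells and 2805 in epididymal GFP- cells, gave -0.52 ± 0.05 there (limma adjusted p = 4.81e-07) and -0.02 ± 0.05 in inguinal cells. The average of both was called in epididymal cells (-0.26, limma adjusted p = 6.34e-06), so the GFP call of Rpl22 rests on the probe set.

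Rps27l fell with GFP in epididymal cells, where 23074, 23201 and 23244 in GFP+ cells stood against 26330, 26322 and 26857 in GFP- cells, a difference of -0.19 ± 0.02 (limma adjusted p = 7.73e-07). Inguinal cells gave 23807, 23622 and 23301 with GFP and 23680, 23040 and 22890 without, a difference of 0.02 ± 0.02 that was not called. The contrasts differed by 0.22 ± 0.03 (limma adjusted p = 1.65e-05). All 3 probe sets of the gene showed the epididymal fall, at -0.19, -0.20 and -0.17. They disagreed between depots: in GFP- cells the brightest gave -0.19 and the others 0.04 and 0.05, and in GFP+ cells the brightest gave 0.02 and the others 0.25 and 0.22. The depot difference of Rps27l thus had no settled direction.

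The remaining paralogues gave smaller or weaker signals. Rpl7l1, named after the large subunit protein Rpl7, measured 3268, 3309 and 3373 in epididymal GFP+ cells and 3537, 3622 and 3638 in epididymal GFP- cells, a fall of 0.12 on the log2 scale (-0.12 ± 0.03, limma adjusted p = 0.00374). In inguinal cells the difference was 0.04 ± 0.03 and not called, and the contrasts differed by 0.16 ± 0.04 (limma adjusted p = 0.00729). Its other probe set also fell in epididymal cells (-0.21, limma adjusted p = 0.000474). There the inguinal difference of -0.06 and the difference of contrasts of 0.15 (limma adjusted p = 0.0513) were not called. Between depots in GFP- cells Rpl7l1 was called lower in inguinal cells by its brightest probe set (-0.13) and not called by the other (-0.06). Rpl3l signals of 12 to 78 on the 12 arrays were at or below weak detection in the mean of each group. Its GFP- depot difference was called (-1.18 ± 0.30, limma adjusted p = 0.00302), from 12, 18 and 21 in inguinal cells and 78, 74 and 34 in epididymal cells. Of 8 skeletal muscle markers, 7 were weakly detected. The other, the actin gene Acta1, was bright and moved with the groups, at means of 11899 ± 1956 in inguinal GFP+ cells, 9467 ± 309 in inguinal GFP- cells, 8351 ± 416 in epididymal GFP+ cells and 3057 ± 269 in epididymal GFP- cells (SD, n = 3 each). The summed signal of the 8 was 10237 to 14133 in inguinal GFP+ cells, 9317 to 9870 in inguinal GFP- cells, 8195 to 9067 in epididymal GFP+ cells and 3635 to 4050 in epididymal GFP- cells, and its part in the Rpl3l values was not tested.

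Most core ribosomal proteins gave nearly the same signal in all groups by their brightest probe sets, most of which lie near the top of the intensity scale. Dimmer probe sets of some of these genes differed more, as given below. Of the 42 core probe sets, 34 had a mean over 14 on the log2 scale, and their median coefficient of variation within a group was 1.38%. Their median absolute depot difference was 0.08 in GFP+ and 0.04 in GFP- cells, against 0.08 and 0.11 for 161 other genes as bright. The probe sets with the highest signal were those of Rps29, Rpl13a and Rpl38, at means of 38883, 37563 and 37000, and those with the lowest were Rpl39, Rps27 and Rpl27a, at 56.2, 352.3 and 732.6. Such signals depend on the probes and were not compared as levels. Core genes took 4.19 ± 0.02% of the summed signal of all genes in inguinal GFP+ cells, 4.14 ± 0.01% in inguinal GFP- cells, 3.99 ± 0.03% in epididymal GFP+ cells and 4.04 ± 0.002% in epididymal GFP- cells (SD, n = 3 each).

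**Figure D2:**
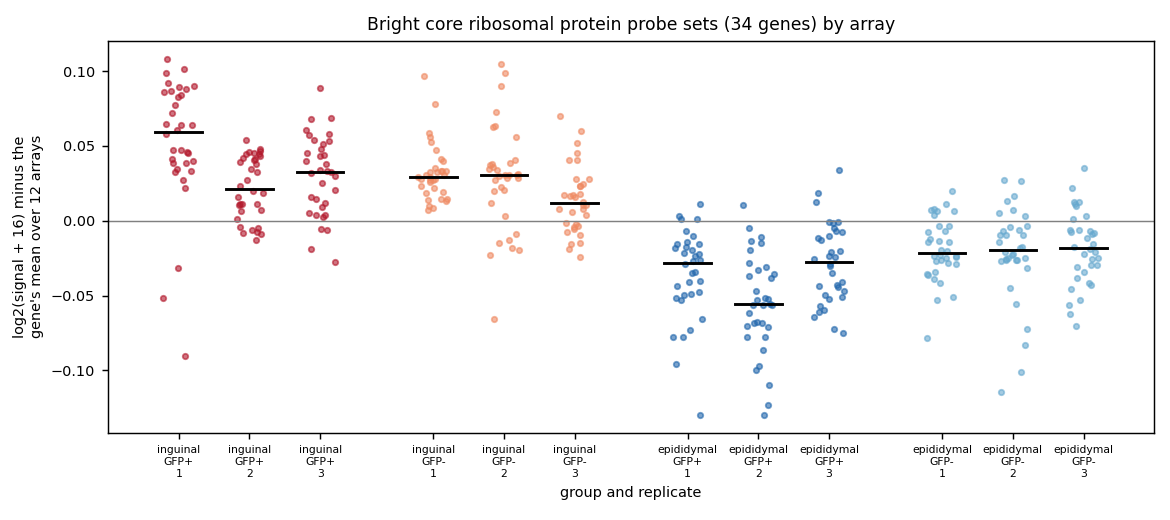
Each point is 1 of the 34 core genes with a mean over 14, as its log2(signal + 16) minus its own mean over the 12 arrays, with the array's median as a black bar and arrays grouped by group and replicate. Medians lie between 0.01 and 0.06 on the inguinal arrays and between -0.06 and -0.02 on the epididymal arrays.

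Between depots in GFP+ cells, 31 members were called higher and 1 lower in inguinal cells, where 23.6% of all genes were called higher, 27.2% lower and 50.8% either way. Core genes made up 29 of the increases and the 1 decrease, and the median core difference was 0.08, against -0.04 over all genes. Quantile normalization left 18 calls higher and 3 lower and a core median of 0.02, which was also the median over all genes (25.9% higher and 22.2% lower). Median centring gave 36 and 1 with a core median of 0.11, against -0.003 over all genes (26.4% and 24.0%). Among genes of like brightness that are no members, with means over 14, 39.8% of 161 were called higher and 23.6% lower, with a median of 0.03; of the 34 bright core genes 76.5% were called higher and none lower, also at an unadjusted p below 0.05. The median absolute difference was 0.08 for the bright core genes and 0.08 for the other bright genes, against 0.25 for genes that were not bright. Only 4 of the 32 called members reached 1.5-fold, beside 17.7% of all genes: Rpl39l, Rps4l, Rpl12 and Rpl27a.

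In GFP- cells 17 members were higher and 6 lower in inguinal cells, beside 27.4% and 26.3% of all genes, or 53.7% either way. Of these, 15 and 3 were core genes, and the core median was 0.04, against -0.02 over all genes. Quantile normalization left 7 higher and 7 lower with a core median of 0.001, against 0.01 over all genes (28.4% higher and 24.4% lower). Median centring gave 7 and 6 with a core median of 0.02, against -0.04 over all genes (25.8% and 27.5%). The small upward calls thus depended on the scaling. Of the 34 bright core genes 38.2% were called higher and none lower, also at an unadjusted p below 0.05, against 47.2% and 24.8% of the 161 other bright genes, and the medians were 0.04 in each set. The count of increases also fell to 9 without inguinal GFP- replicate 1 or 2, to 10 without epididymal GFP- replicate 2 and to 11 without epididymal GFP- replicate 3. Of all genes 25.4% to 26.1% were called higher in those fits. The 4 called members that reached 1.5-fold were Rpl39l, Rps4l, Rpl12 and Rpl3l, beside 21.7% of all genes. The 2 depot comparisons share no array, but each array serves 1 depot and 1 GFP comparison.

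Rpl12, a large subunit protein at the base of the stalk, carried the largest core difference. It gave 1023, 1008 and 1023 in inguinal GFP+ cells and 469, 477 and 552 in epididymal GFP+ cells. GFP- cells gave 1064, 1097 and 1080 in inguinal and 565, 469 and 515 in epididymal cultures. Inguinal cells were thus 2.04-fold and 2.09-fold higher on the signal scale, with log2 differences of 1.01 ± 0.07 and 1.05 ± 0.07 (SE, limma adjusted p = 1.35e-08 and 3.82e-09) and no overlap. Rpl27a, another large subunit protein, ran the other way, with 536, 562 and 538 in inguinal GFP+ cells, against 905, 793 and 804 in epididymal GFP+ cells. Inguinal GFP- cells gave 652, 641 and 614, against 885, 912 and 949 in epididymal GFP- cells. Its differences were -0.60 ± 0.06 and -0.52 ± 0.06 (limma adjusted p = 8.94e-07 and 2.89e-06). Both genes rest on 1 probe set above weak detection.

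Rps25, a small subunit protein known for its part in translation from internal ribosome entry sites, rose in inguinal cells of both kinds. Its signals were 3161, 3022 and 3058 in inguinal GFP+ cells, against 2334, 2459 and 2575 in epididymal GFP+ cells. Inguinal GFP- cells gave 3183, 3137 and 3112, against 2675, 2630 and 2365 in epididymal GFP- cells, so the depots did not overlap. The differences were 0.33 ± 0.05 and 0.30 ± 0.05 (SE, limma adjusted p = 2.33e-05 and 4.05e-05). Smaller increases in both comparisons, all under 0.20, were called for Rps9 (0.17 and 0.10 in GFP+ and GFP- cells), Rpl4 (0.15 and 0.07), Rpl8 (0.15 and 0.15) and Rpl22 (0.14 and 0.16). The GFP- call of Rps9 was lost without epididymal GFP- replicate 2, and that of Rpl4 without any 1 of the 6 GFP- arrays except inguinal GFP- replicate 3. The stalk proteins Rplp0 and Rplp2, which bind elongation factors, each rose by 0.09 ± 0.02 in GFP+ cells and 0.06 ± 0.02 in GFP- cells. Under quantile normalization neither was called in either comparison, and Rplp2 turned to -0.0021 in GFP- cells.

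Further core genes were called in only 1 depot comparison or changed with the settings. Rps27, the partner of Rps27l, was higher in inguinal GFP+ cells by 0.36 ± 0.11 (limma adjusted p = 0.0126), with 375, 357 and 444 against 316, 250 and 341 in epididymal GFP+ cells, and the call was lost without inguinal GFP+ replicate 3 or epididymal GFP+ replicate 2. In the same comparison Rps19, Rpl41 and Rpl11 rose by 0.14, 0.13 and 0.11 (SE 0.02 each). In GFP- cells Rpl37a, Rpl6, Rpl35 and Rps26 were called higher by 0.06 to 0.07, and each lost the call without 1 or more of the GFP- arrays. Rps6, the S6 kinase substrate of the small subunit, and Rpl14 of the large subunit were lower there, by -0.32 ± 0.03 and -0.13 ± 0.04 (limma adjusted p = 3.51e-07 and 0.0104).

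**Figure D3:**
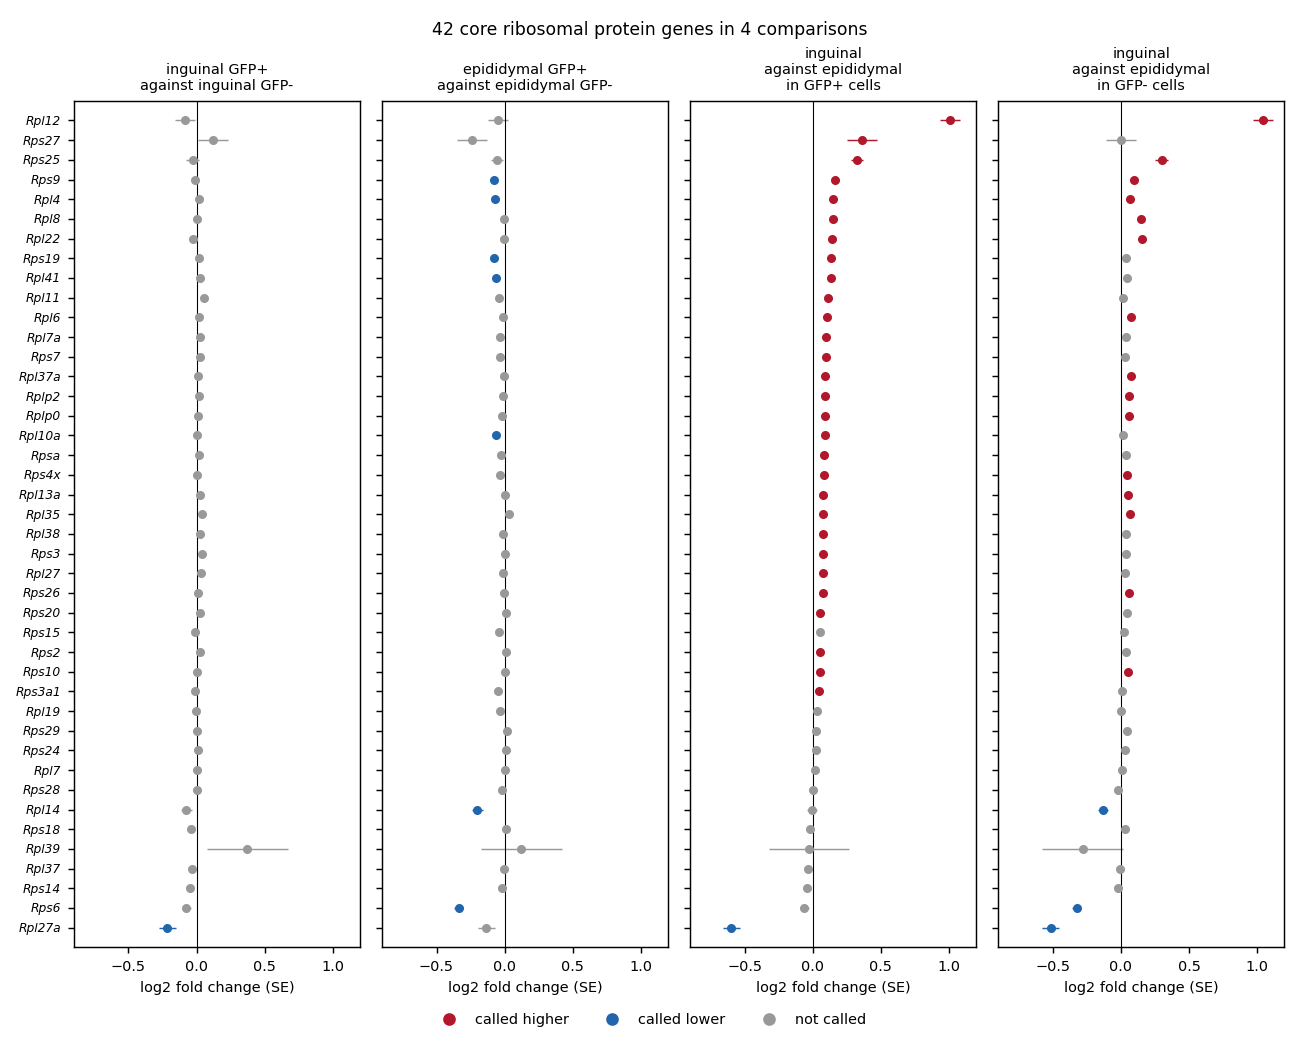
Fitted log2 fold changes with standard errors for the 42 core genes in 4 comparisons, ordered by the GFP+ depot difference, with red for called higher, blue for called lower and grey for not called. Most points lie within 0.2 of 0, apart from Rpl12, Rps27, Rps25, Rpl27a, Rps6 and the weakly detected Rpl39.

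GFP status moved few members in inguinal cells. There 1 member was higher and 2 lower in GFP+ cells, beside 5.26% and 7.29% of all genes. They were Rps4l, Rpl22l1 and Rpl27a. The last, at -0.22 ± 0.06 (limma adjusted p = 0.0328), lost the call without inguinal GFP+ replicate 1 or 3 or inguinal GFP- replicate 1 or 2 and under quantile normalization. That normalization gave 3 members higher and 1 lower, beside 6.04% and 6.51% of all genes. The core median was 0.01, against -0.01 over all genes. No called member reached 1.5-fold, beside 3.16% of all genes.

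In epididymal cells 1 member was higher and 10 were lower with GFP, beside 21.5% and 20.3% of all genes, and the core median was -0.02, against 0.01. The increase was Rps4l, the 1 called member that reached 1.5-fold, beside 13.5% of all genes, and 7 of the decreases were core genes. Rps6 fell most, with 2920, 2949 and 2949 in GFP+ cells and 3613, 3708 and 3838 in GFP- cells, a difference of -0.34 ± 0.03 (limma adjusted p = 3.12e-07). Its other probe set was weakly lit, at means of 75.0 to 101.2, and gave 0.05. Rpl14 followed with 1313, 1275 and 1317 in GFP+ cells and 1489, 1475 and 1532 in GFP- cells (-0.20 ± 0.04, limma adjusted p = 0.000534). The other 5 core decreases, of Rps9, Rps19, Rpl4, Rpl10a and Rpl41, lay between -0.08 and -0.06, and each was lost without 1 or more epididymal arrays. The count was 6 without epididymal GFP+ replicate 2, 5 without epididymal GFP- replicate 3 and 20 under median centring. Of all genes 18.8%, 18.7% and 23.7% were called lower in these settings.

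Several core genes are read by more than 1 probe set, and these did not always move together. Of 21 members with 2 or more probe sets above weak detection, 14 had 1 sign in all of them in either depot comparison. In the GFP comparisons 10 of the 21 did so in inguinal cells and 11 in epididymal cells. The spread was wide where a dimmer probe set stood beside a bright one. For Rps20 in epididymal cells the brightest probe set gave a GFP difference of 0.01, while dimmer ones gave -0.52 and -0.77, with means of 79.2 in GFP+ and 143.3 in GFP- cells for the last. Rps24 showed depot differences of 0.03 and 0.03 in GFP+ and GFP- cells by its brightest and 0.58 and 0.95 by a dimmer one. The means of that one were 1659 in inguinal GFP+ cells, against 1102 in epididymal GFP+ cells, and 1796 in inguinal GFP- cells, against 920.8 in epididymal GFP- cells. Rpl41 gave 0.13 in GFP+ cells by its brightest, and 0.86 and 0.76 by probe sets with inguinal means of 735.0 and 677.7. Rps9 had 0.17 and 0.65, and Rpl22 had 0.14 and 0.68. Rps10 was called in opposite directions in GFP+ cells, at 0.05 by its brightest and at -0.46 by a dim one (limma adjusted p = 0.0251). The means of the dim Rps10 probe set were 138.0 in inguinal and 195.5 in epididymal GFP+ cells. Over all member probe sets that were not weakly detected, with those of Rpl39l and Rps4l left out, the 66 with a mean over 14 had a median absolute depot difference of 0.08 in GFP+ cells, against 0.24 for the 25 that were dimmer. In GFP- cells the medians were 0.04 and 0.19. With the sign kept, the bright and dimmer medians were 0.08 and 0.17 in GFP+ cells and 0.04 and 0.05 in GFP- cells. Dimmer probe sets ran from -0.60 to 1.01 in GFP+ cells, with a median above that of the bright ones. In GFP- cells they ran from -0.52 to 1.05, with a median near that of the bright ones. The fitted standard error was 0.02 in the median bright core gene and 0.09 in the median gene not bright.

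**Figure D4:**
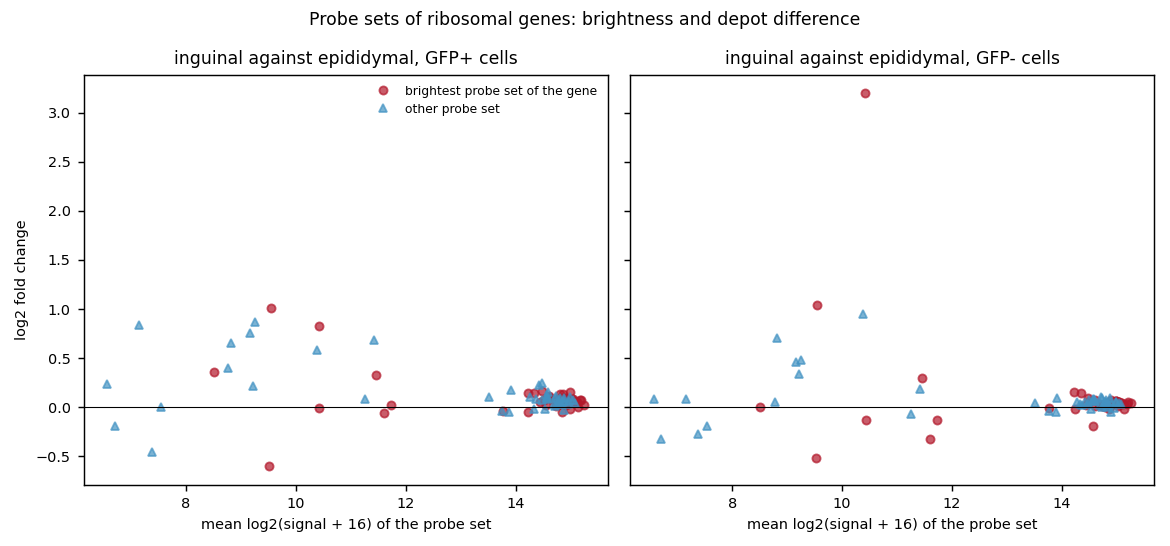
Depot difference (log2 fold change) of each member probe set against its mean log2(signal + 16), in GFP+ and GFP- cells, with circles for the brightest probe set of a gene and triangles for its others, without weakly detected probe sets and without Rpl39l. Probe sets over 14 lie between -0.19 and 0.25, and dimmer ones spread from -0.60 to 1.05 apart from the Rps4l probe set at 3.20.

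Most measured genes that make ribosomes were higher in inguinal cells. Of the 35, 34 had means of 14 or less on the log2 scale, so the sizes of their differences were not set against those of the brighter core genes. Of these 35 genes of rRNA synthesis and ribosome assembly, 30 were higher and 1 lower in inguinal GFP+ cells (beside 23.6% and 27.2% of all genes), and 28 and 0 in inguinal GFP- cells (beside 27.4% and 26.3% of all genes, with 0 lower also at an unadjusted p below 0.05). The medians were 0.30 and 0.22, against -0.04 and -0.02 over all genes. Named by smallest adjusted p, Nop56, Nop58, Rrs1 and Tcof1 rose by 0.68, 0.60, 0.67 and 0.81 in GFP+ cells, and Tcof1, Nop56, Ncl and Ebna1bp2 by 0.91, 0.52, 0.48 and 0.40 in GFP- cells. Nop56 and Nop58 belong to the snoRNP that methylates rRNA, Ncl encodes nucleolin, and Tcof1 takes part in rRNA transcription. In epididymal cells 2 were higher and 13 lower with GFP (beside 21.5% and 20.3% of all genes), led by Tsr1 at -0.35 and Fbl, the rRNA methylase fibrillarin, at -0.29. None was called in inguinal cells by limma's adjusted p, beside 12.6% of all genes, with 0 higher and 2 lower at an unadjusted p below 0.05.

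Translation genes with a 5′ terminal oligopyrimidine tract, outside the ribosome itself, had 10 of 13 higher and none lower (none also at an unadjusted p below 0.05) in inguinal GFP+ cells (median 0.12), beside 23.6% and 27.2% of all genes, and 5 higher and 1 lower in GFP- cells (median 0.02), beside 27.4% and 26.3%. Eif3e and Eef1d, a subunit of initiation factor eIF3 and one of the eEF1 exchange factor, rose in both, by 0.39 and 0.24 and by 0.30 and 0.20. Hnrnpa1 rose by 0.34 in GFP+ cells, and Nap1l1 by 0.59 in GFP- cells, where Eif3h fell by 0.14 on the log2 scale. With GFP in epididymal cells 1 was higher, Nap1l1 at 0.50, and 6 lower, led by Eif3h at -0.32 and Hnrnpa1 at -0.26, beside 21.5% and 20.3% of all genes. In inguinal cells Eif3e (0.14) and Nap1l1 (0.11) were the 2 called, both higher, or 15.4% of the list beside 5.26% of all genes. Mitochondrial ribosomal proteins, a separate set of genes for the ribosome of the mitochondrion, had 43 of 74 higher and 6 lower in inguinal GFP+ cells (median 0.11), and 28 higher and 19 lower in GFP- cells (median 0.03). As shares of the 74 these are 58.1% and 8.11%, beside 23.6% and 27.2% of all genes, and 37.8% and 25.7%, beside 27.4% and 26.3%, so the GFP- decreases were near the share over all genes. Mrps6 rose in both (0.60 and 0.94) and Mrpl52 fell in both (-0.35 and -0.37). In epididymal cells 9 were higher and 20 lower with GFP, or 12.2% and 27% beside 21.5% and 20.3% of all genes, led by Mrpl38 at -0.79 and Mrpl9 at -0.45. The inguinal counts were 3 and 1, or 4.05% and 1.35% beside 5.26% and 7.29% of all genes.

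Among 14 genes that control translation or ribosome production, 6 were higher and 2 lower in inguinal GFP+ cells and 6 and 3 in inguinal GFP- cells. Called either way these are 57.1% and 64.3%, beside 50.8% and 53.7% of all genes. Myc, the factor known to drive ribosome genes, rose by 0.85 and 0.94, and Eif4e, the cap-binding protein, by 0.36 in each. Mycn, its relative, was lower in both, at -1.79 ± 0.14 and -4.06 ± 0.14. With GFP, 3 were higher and 1 lower in inguinal cells, led by Rps6ka3 at 0.25, and 4 and 2 in epididymal cells, led by Mycn at -2.64. Called either way, 28.6% and 42.9% of the list stood beside 12.6% and 41.9% of all genes, so the epididymal share was near that of all genes. Proliferation markers moved beside these lists. All 15 cell cycle genes were higher in inguinal GFP+ cells and 14 in inguinal GFP- cells, beside 23.6% and 27.4% of all genes (medians 0.65 and 0.80), Pcna by 0.65 and 0.80, and the summed signal was 47994 to 51353 and 50106 to 53041 in inguinal GFP+ and GFP- cells, against 31949 to 32641 and 31863 to 33636 in epididymal GFP+ and GFP- cells. The part of proliferation in the ribosomal differences was not tested.

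**Figure D5:**
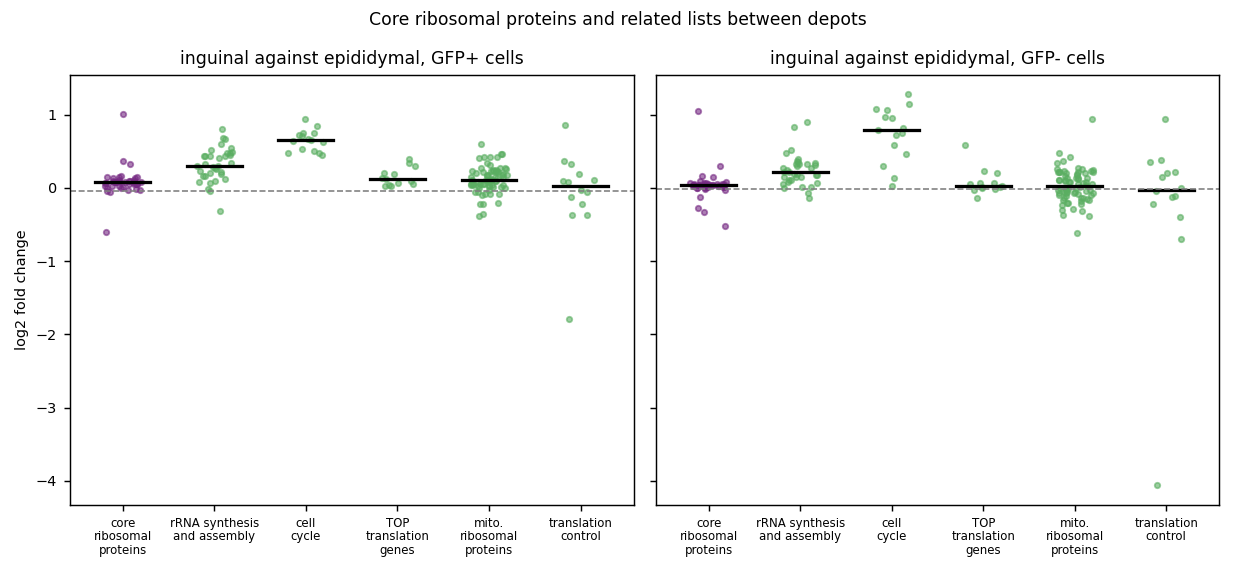
Depot differences (log2 fold change, inguinal against epididymal) of single genes, as points, with list medians as black bars and the median of all genes as a dashed line, in GFP+ and GFP- cells. Medians are 0.08 and 0.04 for core ribosomal proteins, 0.30 and 0.22 for rRNA synthesis and assembly genes, and 0.65 and 0.80 for cell cycle genes. Of the 42 core genes 34 have means over 14 on the log2 scale. In the assembly and cell cycle lists 1 of 35 and 0 of 15 do, so the sizes are not set against each other.

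The GFP contrast differed between depots for 8 members, 7 of them in the positive direction (inguinal minus epididymal) and 1 in the negative, beside 16.1% and 18.7% of all genes. The negative one was Rps4l. Rps27l, Rps6 and Rpl7l1 gave 0.22, 0.26 and 0.16, and Rpl3l, Rps19, Rpl11 and Rpl41 passed less firmly. The count of positive calls was 3 without inguinal GFP+ replicate 1 or inguinal GFP- replicate 3, 4 without inguinal GFP- replicate 1 or epididymal GFP- replicate 3, and 22 under median centring. Of all genes 14.4% to 14.9% were positive calls in the fits with an array left out, and 19.8% under median centring. Rps4l and Rpl3l were the 2 that reached 1.5-fold, beside 14.1% of all genes. The core median of this difference was 0.03, against -0.02 over all genes.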

How the data were processed

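Per the labels' protocols, Trizol and RNeasy columns gave total RNA, which an oligo-dT primer turned into biotin-labelled cRNA. The deposited values are linear intensity per probe set. How signals were summarised, corrected for background and scaled is not given in the sources used here. The number of arrays limits the precision.

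Of 22626 probe sets, the platform annotation gave 20380 a single symbol, 691 several and 1555 none. Only the first kind was used, which left 100 member probe sets and set aside 102 shared ones. Symbols were checked against RefSeq (GRCm38.p6) and 29 had no match. Values were taken as log2(intensity + 16) with no further scaling, and the brightest probe set stood for its gene. Means in the lowest 30% were called weakly detected. Fits used limma 3.58.1 in R 4.3.3 (lmFit, eBayes with a trend) on the 12 arrays together, and a gene was called at a Benjamini-Hochberg adjusted p of at most 0.05 among 12393 genes. Fold changes of weak genes are understated by the added 16. On simulated data for all 12393 genes the 4 depot and GFP comparisons recovered 32% to 48%, 44% to 62%, 74% to 86% and 96% to 100% of changes of 0.25, 0.5, 1 and 2. False calls were 4.17% and 6.06% in the GFP+ and GFP- depot comparisons, and 6.76% and 4.86% in the inguinal and epididymal GFP comparisons. Only 50 genes of each size, drawn from all genes, were changed in the simulation. The real data had far more calls, from 12.6% to 53.7% of genes, and bright core genes had smaller standard errors than most genes. The simulated shares thus do not carry over to the ribosomal genes.

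The members and gene lists were chosen with earlier results of these data known. Named genes were all paralogues and partners, stalk proteins, the 10 largest called core changes per direction, the brightest and dimmest 3, and up to 4 called genes per related list; the text names part of the last. Alternatives were quantile normalization, median centring, other pseudocounts, probe set choices, weak genes left out, only the compared groups, no trend, stricter calls, the replicate number as a block and each array left out. Same-numbered arrays of compared groups did not deviate together (correlations of -0.06 to 0.04), so the numbers were not taken to pair samples.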

Additional observations from a re-analysis of the deposited data

Results flagged for a closer look

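The GFP contrast differed between the inguinal and epididymal depots, by a test of the difference itself (limma, n = 3 arrays a group), for 8 members. For Rps4l it was -2.37 ± 0.08 (SE, adjusted p = 1.18e-12), for Rps27l 0.22 ± 0.03 (adjusted p = 1.65e-05), for Rps6 0.26 ± 0.05 (adjusted p = 0.000292) and for Rpl7l1 0.16 ± 0.04 (adjusted p = 0.00729). The first of these was called in all alternatives run, and that of Rps6 was lost when its probe sets were averaged. That of Rpl7l1 was not called by its other probe set (0.15, limma adjusted p = 0.0513). For Rpl11 it was 0.093 ± 0.03 (adjusted p = 0.0242), for Rpl41 0.090 ± 0.03 (adjusted p = 0.0295) and for Rps19 0.10 ± 0.03 (adjusted p = 0.032), each lost without 1 or more single arrays. For Rpl3l, whose signals were at weak detection, it was 1.15 ± 0.42 (adjusted p = 0.0444) and was lost without any 1 of 9 of the 12 arrays.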

How the results depend on the processing

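The counts of members called moved by more than 1.5 times under the settings given here. The share of all genes called the same way in the same setting follows in brackets. Quantile normalization gave 3 members higher and 1 lower with GFP in inguinal cells (6.04% and 6.51%) and 2 higher with GFP in epididymal cells (21.2%). Between depots quantile normalization gave 18 higher and 3 lower in GFP+ cells (25.9% and 22.2%) and 7 higher in GFP- cells (28.4%). It turned the GFP+ depot difference of Rps10 to -0.028, Rps2 to -0.0083, Rps20 to -0.011 and Rps3a1 to -0.022, and the GFP- one of Rplp2 to -0.0021 and Rps4x to -0.0053; by construction it ties each array to 1 distribution. Median centring gave 1 lower in inguinal cells (5.85%), 20 lower in epididymal cells (23.7%), 22 higher in the difference of contrasts (19.8%) and 7 higher between depots in GFP- cells (25.8%). With only the compared groups in the fit, 2 were higher in inguinal cells (4.66%). Without the variance trend, 5 were lower in epididymal cells (19.1%), 3 higher in the difference (14.6%) and 6 higher between depots in GFP- cells (26.8%). Averaging the probe sets of a gene gave 1 lower in inguinal cells (6.35%), 2 higher in epididymal cells (19.9%) and 2 lower between depots in GFP+ cells (25.4%). It turned Rps20 to -0.31 with GFP in epididymal cells, Rpl22 to 0.24 in the difference, Rps10 to -0.014 between depots in GFP+ cells, and Rps4x to -0.52 in GFP+ and -0.60 in GFP- cells, as the mean takes in dim probe sets. Without probe sets of the _x_at kind, which the maker flags for shared sequence, 2 were higher in epididymal cells (21.6%) and 2 lower in the difference (18.65%). There Rps20 turned to -0.52 in epididymal cells and Rps18 to 0.098 between depots in GFP+ cells. An adjusted p of 0.01 left 1 lower in inguinal cells (4.52%), 5 lower in epididymal cells (16.4%), 3 higher in the difference (12.05%) and 8 higher between depots in GFP- cells (23.75%). A minimum of 1.5-fold left 0 and 0 in inguinal cells (1.15% and 2.02%), 0 lower in epididymal cells (6.375%) and 1 higher in the difference (6.02%). Between depots that minimum left 3 higher in GFP+ cells (5.36%), and 3 higher and 1 lower in GFP- cells (9.88% and 11.8%). With only probe sets of no letter suffix, chosen after seeing the data, 1 was lower in inguinal cells (6.75%), 2 higher and 5 lower in epididymal cells (20.3% and 18.8%) and 4 higher and 2 lower in the difference (14.6% and 17.4%). Between depots 14 were higher and 2 lower in GFP+ cells (21.7% and 26.3%) and 9 higher in GFP- cells (25.8%). Rps20 turned to -0.77 and Rps9 to 0.0097 in epididymal cells, and Rps10 to -0.46 and -0.27 between depots in GFP+ and GFP- cells. Causes were not tested otherwise.

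With 1 array left out at a time, the counts ran from 1 to 2 higher and 1 to 2 lower in inguinal cells, 1 to 1 higher and 5 to 13 lower in epididymal cells, 3 to 9 higher and 1 to 1 lower in the difference, 25 to 32 higher and 1 to 2 lower between depots in GFP+ cells, and 9 to 17 higher and 6 to 6 lower in GFP- cells. No direction of a called member turned under these, nor under other pseudocounts or with weak genes left out. The replicate block, fitted although the numbers share nothing but a label, gave 11 lower in epididymal cells (beside 20.3% of all genes). It gave 30 and 16 higher between depots in GFP+ and GFP- cells (beside 23.3% and 27.3%), and moved no other count of members. The depot calls of Rpl39l, Rps4l, Rpl12, Rpl27a, Rps25, Rpl22 and Rpl8 and the GFP calls of Rps4l and Rpl22l1 outside the 1.5-fold rule were kept in every setting run.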
